A study of Homo sapiens with 6 samples.

Results

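A set of 9 genes of the epithelial tight junction was followed in MDA-MB-231, a human cell line from a triple-negative breast cancer that is usually placed in the claudin-low subtype. The genes were taken by name from a list: the strand proteins CLDN1, CLDN4, CLDN7 and OCLN, the adhesion protein F11R, the plaque scaffolds TJP1, TJP3 and CGN, and the polarity scaffold PARD3. All 9 members were among the 25330 gene symbols counted, and all 9 passed the filter on low counts that left 14199 genes for testing. The labels give 2 genotypes of the line, a control named CTRV2 (3 libraries) and an RNASEH2A knockout named RN1 (3 libraries). RNASEH2A encodes the catalytic subunit of RNase H2, which removes ribonucleotides from DNA. Both were cultured untreated in RPMI-1640 with serum, and each library came from a different passage. The sources used here do not say whether RN1 is a single clone or a pool, or what CTRV2 carries. The p-values therefore measure the spread between passages.

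Tight junctions seal the space between neighbouring epithelial cells near their apical side. Claudins polymerise into the strands that decide which ions pass, occludin is built into the same strands, and F11R (JAM-A) is an immunoglobulin-type adhesion protein beside them. Zonula occludens proteins, such as those encoded by TJP1 (ZO-1) and TJP3 (ZO-3), bind the tails of claudins and link them to actin, cingulin (CGN) attaches to this plaque, and PARD3 belongs to the polarity complex that places the junction. Breast tumours of the claudin-low subtype are known for low expression of several of these genes, and the transcription factors ZEB1, SNAI1 and SNAI2 repress epithelial junction genes through E-boxes with the core CACCTG.

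Libraries held 25419877 to 31596286 counts. RNASEH2A itself was counted 10, 6 and 15 times in control replicates 1, 2 and 3 and 7, 8 and 16 times in knockout replicates 1, 2 and 3, which is too few for the test and does not check the labels. Every direction below therefore rests on the genotype labels.

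The E-box was looked for in the 250 bases upstream of each RefSeq start (GRCh38.p14), as CACCTG or its reverse complement CAGGTG, which do not overlap each other in any member. Of the 9 members, 7 had an entry, with 13 starts in all, and F11R and PARD3 had none. An E-box was present at 5 of the 13 starts, in CLDN7, OCLN, TJP1 and TJP3, and in 17.5% of all 35116 windows of the same length. The windows of CLDN1, CLDN4 and CGN held no E-box. The window of the downstream CLDN7 start held 4, a number reached by 0.122% of windows. The stretches below are 30 bases each, in the direction of transcription, with the E-boxes in capitals. They show where this core lies in the members whose levels are described next, and a match is a string of letters, not a measured site.

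TJP3, chr19:3721707-3721736, plus strand: gagacctggaggaggaagaggggCAGGTGc

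CLDN7, chr17:7262481-7262510, minus strand: cctacatatactCAGGTGcgcccCACCTGt

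CLDN7, chr17:7262635-7262664, minus strand: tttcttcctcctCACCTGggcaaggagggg

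OCLN, chr5:69492502-69492531, plus strand: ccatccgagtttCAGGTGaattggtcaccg

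TJP1, chr15:29969120-29969149, minus strand: gcggccggcgcgCAGGTGgcccggcctcgc

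The TJP3 E-box begins 7 bases before the downstream of its 2 starts, in sequence that GENCODE 29 annotates as TJP3 exon. The OCLN E-box shown begins 33 bases before the upstream OCLN start, in annotated OCLN exon. The nearest CLDN7 E-boxes begin 20 and 9 bases before the downstream CLDN7 start, in sequence that GENCODE 29 annotates as CLDN7 exon. In TJP1 the E-box lies 88 bases before the most upstream start, outside annotated exons. Because TJP3 is the member that changed most, the part of its downstream promoter window that lies outside annotated exons is also given. It spans 130 bases of chr19:3721487-3721616 on the plus strand, with a G and C content of 68.5%, and holds no E-box.

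TJP3: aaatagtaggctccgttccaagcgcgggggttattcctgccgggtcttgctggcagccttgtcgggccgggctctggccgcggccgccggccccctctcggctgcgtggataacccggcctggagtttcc

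Knockout libraries had higher levels of 3 of the 9 tight junction genes, TJP3, CLDN4 and F11R, while 0 were lower and 6 did not pass the test. At an unadjusted p under 0.05, 4 were higher and 1, PARD3, lower, and DESeq2 and limma-voom each called 3 higher and 0 lower. That is 33.3% of the members higher, where 5.88% of all tested genes were higher, 6.22% were lower and 12.1% changed in either direction. The call was an adjusted p under 0.05 in edgeR's quasi-likelihood test. Levels are in CPM, counts scaled to library size with TMM factors. The 3 control and 3 knockout values did not overlap at 7 of the 9 members (77.8%), against 33.5% of all tested genes. The median log2 fold change of the members was 0.34, and that of all tested genes was 0.0035. The members were chosen with earlier results of these data known, so these shares and medians do not test the set. Apart from TJP3 the differences were small: the other 8 members lay between -0.38 and 0.51 on the log2 scale. Against a minimum change of 1.5-fold, TJP3 was the single member that passed (adjusted p = 0.0016).

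**Figure D1:**
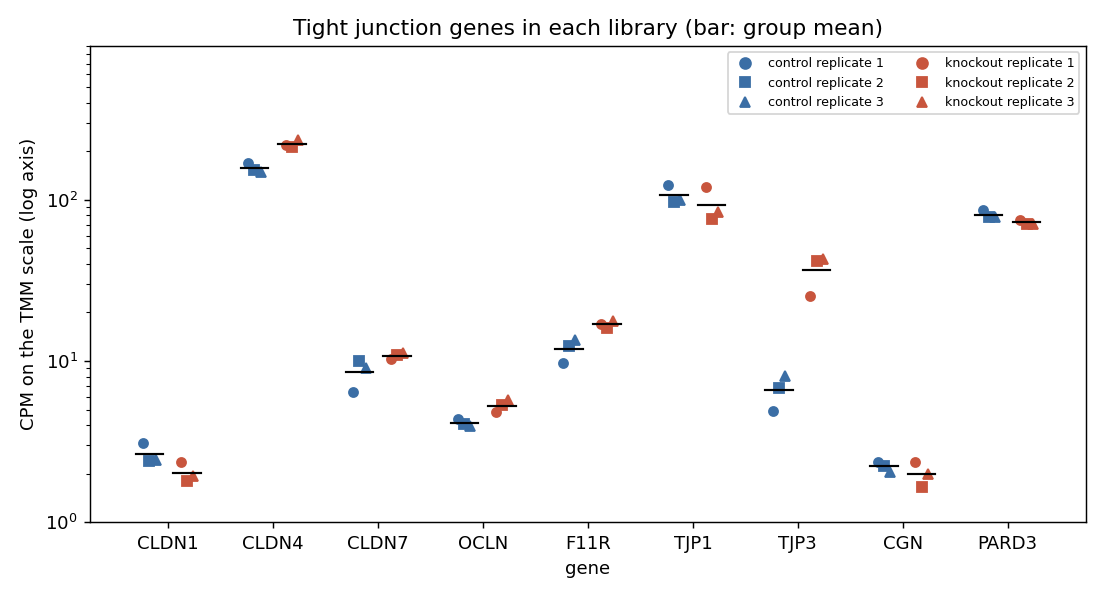
Level of each tight junction gene in every library, as CPM on the TMM scale (log axis), with control in blue, knockout in red, a marker shape per replicate and a black bar for the group mean. TJP3 is separated most, at 4.93 to 8.09 in controls and 25.4 to 43.2 in knockouts, while CGN and TJP1 overlap between the groups.

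Among the strand proteins, CLDN4, a claudin that tightens the barrier against sodium, was both the most abundant and the one that rose. CLDN4 (chromosome 7, 73799542 to 73832693, plus strand, ENSG00000189143.9, GENCODE 29 on GRCh38) was at 170, 153 and 149 CPM in control replicates 1 to 3 and at 220, 213 and 236 CPM in knockout replicates 1 to 3. All knockout values lay above all control values. The group levels were 157 ± 11.1 CPM (SD, n = 3) and 223 ± 11.9 CPM (SD, n = 3), a 1.42-fold rise (log2 fold change 0.50 ± 0.07 SE, edgeR adjusted p = 0.00299). CLDN4 passed when any single library was left out, with an adjusted p of at most 0.0282, and did not pass against a minimum of 1.5-fold.

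CLDN7 (chromosome 17, 7259903 to 7263983, minus strand), a claudin of lateral membranes as well as tight junctions, was at 6.45, 10.00 and 9.09 CPM in controls and at 10.3, 10.9 and 11.2 CPM in knockouts. The groups did not overlap, but the gap between control replicate 2 and knockout replicate 1 was small, and control replicate 1 was the one low library. CLDN7 did not pass (log2 fold change 0.34 ± 0.16 SE, adjusted p = 0.204), and without control replicate 1 its log2 fold change was 0.17. Of its exonic bases 10.8% are shared with AC003688.1 on the same strand, so that part of its count is uncertain.

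OCLN (chromosome 5, 69492292 to 69558104, plus strand), the gene of occludin, was low in every library. It stood at 4.39, 4.07 and 3.97 CPM in controls and 4.80, 5.32 and 5.74 CPM in knockouts. All knockout values were above all control values, by a small margin, and the gene did not pass (log2 fold change 0.35 ± 0.15 SE, adjusted p = 0.171). Of the distinct stretches of 50 bases in its transcripts, 8.60% also occur in transcripts of other genes, OCLNP1 first among them.

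CLDN1 (chromosome 3, 190305701 to 190322475, minus strand), a claudin that is essential for the skin barrier, went the other way. Its values were 3.11, 2.39 and 2.42 CPM in controls and 2.37, 1.80 and 1.93 CPM in knockouts, on 50 to 92 counts per library. The lowest control and the highest knockout nearly met, and CLDN1 did not pass (log2 fold change -0.38 ± 0.22 SE, adjusted p = 0.308).

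F11R (chromosome 1, 160995211 to 161021348, minus strand) was the third member that rose. It was at 9.72, 12.5 and 13.5 CPM in controls and 16.9, 16.0 and 17.8 CPM in knockouts. The groups did not overlap, and control replicate 1 was the lowest library. The rise was 1.42-fold (log2 fold change 0.51 ± 0.13 SE, adjusted p = 0.0337). This call depended on single libraries: the adjusted p was 0.0853, 0.0972 and 0.0575 without control replicate 1, 2 or 3 and 0.139 without knockout replicate 3. F11R shares 36.6% of its exonic bases with AL591806.3 on the same strand, and the sources used here do not say how reads of the shared exons were assigned.

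TJP3 showed the largest change of the 9 and ranked 38th by p among all tested genes. TJP3 (chromosome 19, 3708109 to 3750813, plus strand, ENSG00000105289.14) had 146, 193 and 204 counts in controls and 814, 1166 and 1210 in knockouts. On the CPM scale these were 4.93, 6.77 and 8.09 against 25.4, 41.9 and 43.2. Each knockout library was more than 3-fold above the highest control library, and replicate 1 was the lowest of its group in both genotypes. Levels were 6.60 ± 1.59 CPM (SD, n = 3) and 36.8 ± 9.93 CPM (SD, n = 3), a 5.59-fold rise (log2 fold change 2.48 ± 0.23 SE, adjusted p = 0.000436). With single libraries left out the log2 fold change ran from 2.31 to 2.70, and TJP3 passed each time. GENCODE 29 places no other exon over its exons, and 0.326% of the 50-base stretches of its transcripts occur in other genes.

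TJP1 (chromosome 15, 29699367 to 29968865, minus strand), the most widely expressed of the zonula occludens genes, did not rise with its paralog. It was at 124, 97.1 and 100.1 CPM in controls and 121, 75.7 and 83.7 CPM in knockouts. Replicate 1 was high in both genotypes, and because of it the groups overlapped. TJP1 did not pass (log2 fold change -0.20 ± 0.16 SE, adjusted p = 0.477). Without knockout replicate 1 it was lower in knockouts (-0.43, adjusted p = 0.00986), and likewise without replicate 1 of both groups (-0.31, adjusted p = 0.00139), a setting chosen after seeing the data.

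The balance between the 2 scaffolds was therefore different in the 2 genotypes, which restates the TJP3 change and is no separate evidence. Levels of different genes were compared as CPM per kilobase of exon, using the union of annotated exons. On that scale the TJP3 level divided by the TJP1 level was 0.106, 0.186 and 0.216 in control replicates 1 to 3. In knockout replicates 1 to 3 the same quotient was 0.561, 1.48 and 1.38. Every knockout value was above every control value (exact two-sided permutation p = 0.1, the smallest that 3 against 3 can give).

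CGN (chromosome 1, 151510510 to 151538692, plus strand), which encodes cingulin, had the lowest level per length of the 9. Its values were 2.36, 2.25 and 2.06 CPM in controls and 2.37, 1.65 and 2.00 CPM in knockouts, and the groups overlapped (log2 fold change -0.15 ± 0.22 SE, adjusted p = 0.723). PARD3 (chromosome 10, 34109560 to 34815325, minus strand) was at 86.0, 77.8 and 78.6 CPM in controls and 75.0, 70.7 and 71.2 CPM in knockouts. All its knockout values were below all control values, yet the difference was small and PARD3 did not pass (-0.16 ± 0.07 SE, adjusted p = 0.174).

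**Figure D2:**
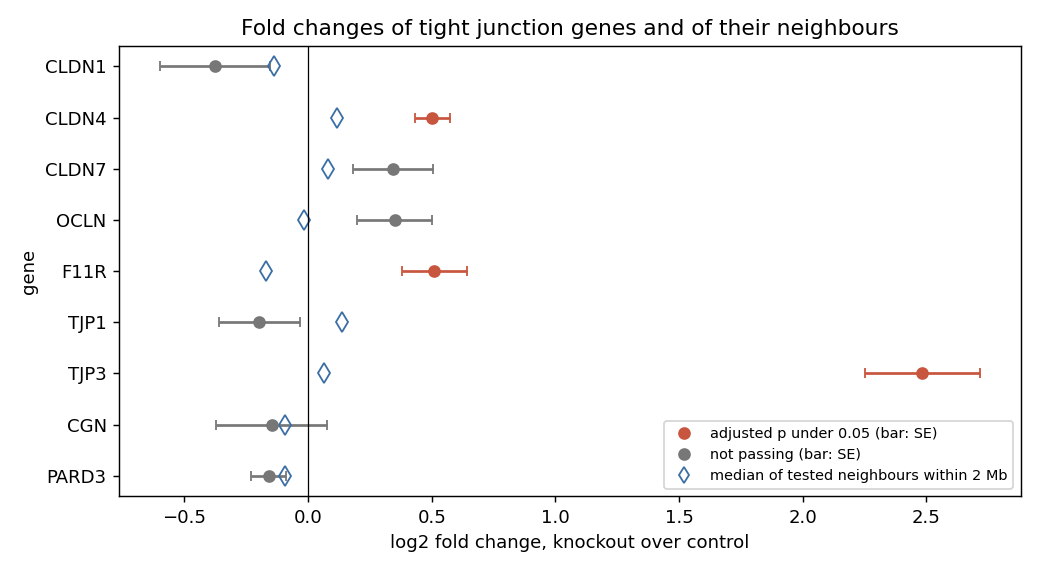
Log2 fold change of each tight junction gene, knockout over control, as a point with its standard error, in red where the adjusted p was under 0.05 and in grey otherwise. Open diamonds give the median log2 fold change of the tested genes within 2 Mb. TJP3 lies at 2.48, far to the right of its neighbours' median of 0.065.

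Per kilobase of exon, the order of levels in controls was CLDN4 (33.4 CPM per kb), PARD3 (12.4), TJP1 (9.52), CLDN7 (3.41), F11R (2.35), TJP3 (1.56), CLDN1 (0.720), OCLN (0.612) and CGN (0.336). Among control neighbours in this order, the libraries of CLDN7 and F11R overlapped, and F11R and TJP3 met at 1.92. In knockouts TJP3 stood at 8.73 ± 2.35 CPM per kb (SD, n = 3) and overlapped TJP1 at 8.29 ± 2.14 (SD, n = 3). OCLN (0.782) and CLDN1 (0.554) had changed places, without overlap, but in controls these genes nearly met. The lowest CLDN1 control library was at 0.651 and the highest OCLN control library at 0.649. Neither gene passed the test between the genotypes. Of the 13356 tested genes with an annotated position and length, 88.8% had a lower level than CLDN4 in controls and 92.7% in knockouts. For TJP3 these shares were 28.0% and 62.3%.

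No other cell line was compared, so the label claudin-low was not tested here. In controls CLDN3 (2.66 CPM per kb), CLDN7 (3.41), OCLN (0.612), the cadherin gene CDH1 (0.243) and EPCAM (6.01) had lower means than ZEB1 (7.49). CLDN4 (33.4) was above ZEB1 and SNAI2 (12.4). All of them, CLDN4 included, were below the mesenchymal genes VIM (143) and CD44 (126) on the same scale. The low-side markers CLDN3, CLDN4, CLDN7, OCLN, CDH1 and EPCAM included 1 riser, CLDN4, and 5 of 6 that did not pass. That is 16.7% called, against 12.1% of all tested genes, and at an unadjusted edgeR p under 0.05 the low side had 3 higher and 0 lower. The high-side markers VIM, ZEB1, SNAI2, CD44, SPARC and FN1 had 0 of 6 that passed in edgeR, DESeq2 or limma-voom, and 2 lower at an unadjusted edgeR p under 0.05. SPARC went against that side, at 1.12 ± 0.324 CPM (SD, n = 3) in controls.

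The summed claudin level rose, and it did not separate the groups once CLDN4 was set aside. Of 17 claudin genes counted, CLDN4 supplied 56.3, 52.4 and 51.3% of the summed level per kilobase in control replicates 1 to 3, and 59.5, 60.0 and 62.9% in knockout replicates 1 to 3. The summed level went from 62.6 ± 1.30 to 77.9 ± 2.25 CPM per kb (SD, n = 3 each), without overlap (exact two-sided permutation p = 0.1, the smallest possible). Without CLDN4 the sums were 29.2 ± 1.07 and 30.5 ± 1.17 CPM per kb, and the groups overlapped (exact permutation p = 0.3).

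**Figure D3:**
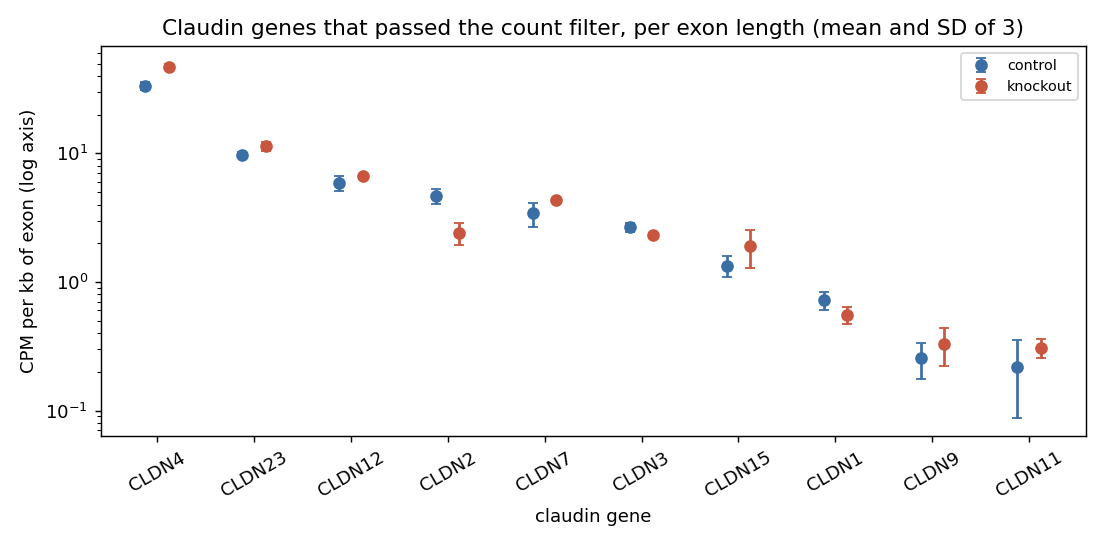
Mean level and SD of 3 libraries for the 10 claudin genes that passed the count filter, as CPM per kilobase of exon (log axis), with control in blue and knockout in red. CLDN4 leads in both genotypes at 33.4 and 47.4 CPM per kb, and CLDN2 is the one claudin that is lower in knockouts by test.

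The list of other claudins included the claudin domain gene CLDND1, which the sums above leave out. On this list 8 genes were tested, and 0 rose and 1 fell in edgeR, DESeq2 and limma-voom alike. That is 12.5% of the list, against 12.1% of all tested genes. At an unadjusted edgeR p under 0.05, 1 was higher and 1 lower. CLDN2, which forms a pore for sodium and water, was the one that fell. It was at 18.3, 15.5 and 13.9 CPM in controls and 9.47, 6.40 and 8.59 CPM in knockouts, with no overlap (log2 fold change -0.96 ± 0.16 SE, adjusted p = 0.0063). CLDN2 passed in all 6 fits with a library left out. CLDN3, CLDN12, CLDN15, CLDN23 and CLDND1 were above 1 CPM in both groups and did not pass. Of the counted claudins, CLDN19 had no count in any library.

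Other membrane proteins of the junction moved both ways: of 6 tested, LSR rose, CXADR and ILDR2 fell, and 3 did not pass. DESeq2 called 1 higher and 2 lower of these, and limma-voom 1 higher and 1 lower. LSR, the angulin that recruits tricellulin to corners where 3 cells meet, went from 57.3 ± 5.08 to 79.3 ± 7.10 CPM (SD, n = 3 each). Its log2 fold change was 0.47 ± 0.09 SE (adjusted p = 0.0122). ILDR2, a related angulin, was lower (-0.45 ± 0.13 SE, adjusted p = 0.0454), and so was CXADR, the coxsackievirus and adenovirus receptor (-0.51 ± 0.10 SE, adjusted p = 0.0128). LSR and CXADR each lost the call without control replicate 3 or knockout replicate 3, with an adjusted p of at most 0.0725 and 0.0734. ILDR2 kept it in 2 of the 6 fits, losing it without control replicate 2 or 3 or knockout replicate 2 or 3 (adjusted p up to 0.186). MARVELD2, which encodes tricellulin, did not pass (5.04 ± 0.823 and 4.22 ± 0.666 CPM, adjusted p = 0.413).

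Of 16 tested scaffold and plaque genes, AMOTL2, an angiomotin family protein, rose by 0.21 ± 0.06 SE (adjusted p = 0.0494) and 15 did not pass. In this list limma-voom called 0 genes and DESeq2 1 higher and 1 lower. AMOTL2 was called in 1 of the 6 fits with a library left out, the one without knockout replicate 1. Of 18 tested polarity genes, 1 rose and 1 fell. PRKCZ, an atypical protein kinase C and partner of PARD3, went from 6.11 ± 0.348 to 8.77 ± 0.0973 CPM (0.52 ± 0.12 SE, adjusted p = 0.0238). CDC42, the small GTPase that activates this complex, fell by 0.22 ± 0.05 SE on the log2 scale (adjusted p = 0.0285). PRKCZ lost the call without control replicate 2, control replicate 3 or knockout replicate 3, and CDC42 without any 1 control replicate or knockout replicate 3, with an adjusted p of at most 0.111 and 0.142.

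Among 16 genes of junctional actomyosin and its regulators, 2 rose and 1 fell. SHROOM2, an actin-binding protein that associates with ZO-1, was at 39.8, 40.2 and 35.3 CPM in controls and 18.4, 11.3 and 11.4 CPM in knockouts (-1.49 ± 0.18 SE, adjusted p = 0.00123). ARHGEF18, a guanine nucleotide exchange factor found at tight junctions, rose from 199 ± 0.763 to 281 ± 14.3 CPM (0.49 ± 0.06 SE, adjusted p = 0.00139). SHROOM2 and ARHGEF18 passed in all 6 fits with a library left out. MYLK, the myosin light chain kinase, rose by 0.40 ± 0.11 SE (adjusted p = 0.0415), a call lost without any 1 control replicate or knockout replicate 3 (adjusted p up to 0.137).

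Transcription factors that repress junction genes showed 0 calls among 4 tested in edgeR, DESeq2 or limma-voom, and 0 at an unadjusted edgeR p under 0.05. With 12.1% of all tested genes called in edgeR, 0 of 4 says little about this list. Of 7 listed factors 5 were counted: TWIST1 and TWIST2 were not, and TCF4 was below the count filter. ZEB1 was at 64.8 ± 4.34 and 70.1 ± 4.27 CPM (SD, n = 3 each; adjusted p = 0.390), SNAI2 at 42.2 ± 2.12 and 44.2 ± 4.14, and ZEB2, with the smallest p of the list, had a log2 fold change of -0.22 (adjusted p = 0.253). Of 9 tested epithelial regulators 8 did not pass, and 11.1% were called against 12.1% of all tested genes. The splicing factor gene ESRP2 fell by 0.55 ± 0.13 SE (adjusted p = 0.0258), and it passed only in the fit without knockout replicate 1 when libraries were left out (adjusted p up to 0.0874). GRHL2, an activator of epithelial junction genes, and OVOL1 and OVOL2, repressors that favour the epithelial state, were below the count filter.

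Over all 7 of these lists 11 of 77 tested genes changed, or 14.3%, near the 12.1% of all tested genes, with 5 higher and 6 lower and a median log2 fold change of -0.00084. Single libraries moved this count strongly, and the count over all tested genes moved with it. The list count was 5 and 3 without control replicates 2 and 3, 21 without knockout replicate 1 and 3 without knockout replicate 3. In the same 4 fits the genes called were 649 of 14481, 550 of 14517, 3430 of 14409 and 524 of 14509. In the main fit they were 1718 of 14199. CLDN2, ARHGEF18 and SHROOM2 were the 3 of the 11 that passed in all 6 fits.

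Replicate 1 stood apart from replicates 2 and 3 for most members, often in the same direction in both genotypes. It held the highest value of its group in both genotypes for 4 members, TJP1, CLDN1, CGN and PARD3, and the lowest in both for TJP3 and CLDN7. For TJP1 it lay 0.22 and 0.40 above the control and knockout means in log2 CPM, and for TJP3 0.39 and 0.50 below them (deviations of -0.387 and -0.496). The 2 replicate 1 libraries also had the largest totals of their groups, 29635083 and 31596286 counts. The part of depth in this pattern was not tested, and how many of all tested genes show the pattern was not counted. Over all tested genes, the 2 replicate 1 libraries deviated from their group means together, with a correlation of 0.316. Without replicate 1 of both groups, 4 members passed: TJP3 (log2 fold change 2.52), CLDN4 (0.57) and F11R (0.38) higher, and TJP1 lower. That fit also called far more genes in all, 4312 of 14183, against 1718 of 14199 in the main fit.

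**Figure D4:**
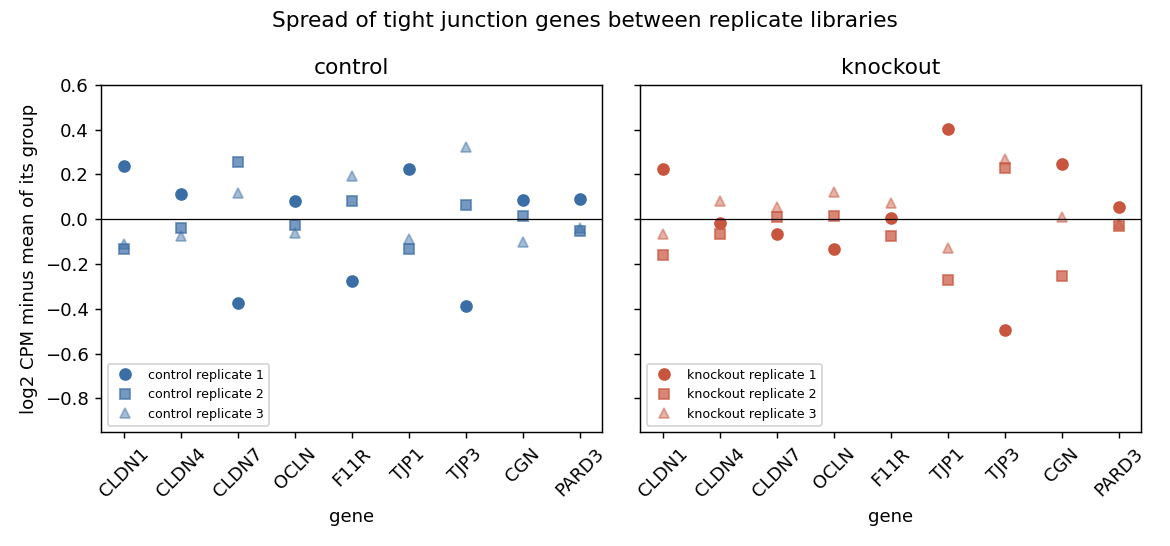
Deviation of each library from the mean of its group, in log2 CPM, for the 9 tight junction genes in controls (left) and knockouts (right), with a marker shape per replicate. Replicate 1 (circles) is above the others for TJP1, CLDN1, CGN and PARD3 and below them for TJP3 and CLDN7 in both panels.

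Genes next to each member were read to see whether the member moved with its surroundings. Within 2 Mb of the TJP3 start lay 80 tested genes with a median log2 fold change of 0.065, of which 2 were higher and 2 lower. None of these 80 had a larger log2 fold change than TJP3, and EBI3, 521 kb away, was next among those that passed, at 1.75. Around CLDN4 the 36 neighbours had a median of 0.12, with 5 higher and 0 lower. CLDN4 was 0.39 above that median, and 3 neighbours exceeded it. F11R stood against its surroundings, with a median of -0.17 over 41 neighbours, 1 higher and 3 lower, so that it was 0.68 above them. The neighbours of CGN and PARD3, both at a median of -0.092, lay close to those genes' own values of -0.15 and -0.16.

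**Figure D5:**
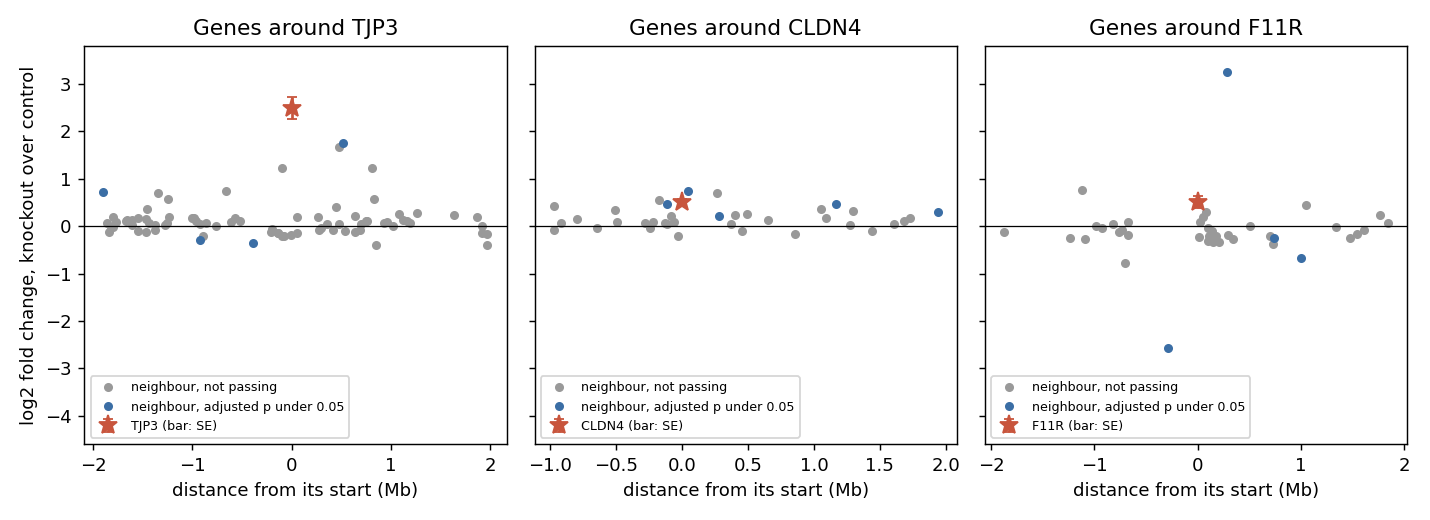
Log2 fold change of tested genes within 2 Mb of TJP3, CLDN4 and F11R against distance from the start of each, with neighbours that passed in blue, others in grey and the member as a red star with its standard error. TJP3 stands above all its neighbours, at 2.48, while CLDN4, at 0.50, lies among several raised genes.

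Genes with the most similar pattern over the 6 libraries were listed for the 2 members with the smallest p, by Pearson's r of log2 CPM. For TJP3 they were CSTB (r = 0.999), TMEM18 (0.999) and H2BC12 (0.999), and for CLDN4 GGH (0.999), DNAJB6 (0.998) and HMGB2 (0.996). Because the 6 points share the difference between the genotypes, this is a description of the libraries only.

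Markers of other cell types were read for the same libraries. The endothelial genes CDH5, VWF, TEK and CLDN5 averaged under 1 CPM in both groups, as did PECAM1. ESAM was at 33.4 ± 1.32 and 29.2 ± 3.54 CPM, and EGFL7 rose by 0.81 ± 0.12 SE. Summed over the 7 listed endothelial genes, levels ran from 76.4 to 80.1 CPM in controls and from 87.5 to 117 CPM in knockouts. Of the leukocyte markers counted, PTPRC, ITGAM and CD68 averaged under 1 CPM, and LAPTM5 rose from 61.7 ± 2.14 to 175 ± 11.5 CPM. CD14 was at 4.28 ± 0.495 CPM in controls and 3.00 ± 0.912 CPM in knockouts and did not pass (log2 fold change -0.51, adjusted p = 0.188). The sum of these 5 counted leukocyte genes was 63.9 to 67.5 CPM in controls and 167 to 191 CPM in knockouts, and LAPTM5 was the one of them that was higher by test. Of 4 tested fibroblast genes 0 passed in edgeR or limma-voom, 1 was lower in DESeq2, and 2 were higher and 1 lower at an unadjusted edgeR p under 0.05. Over all tested genes 12.1% passed in edgeR. COL1A2 was at 27.5 ± 4.64 and 40.6 ± 14.7 CPM (SD, n = 3 each), and PDGFRB at 12.9 ± 2.32 and 19.0 ± 7.20 CPM. COL1A1 was at 9.95 ± 0.793 and 6.26 ± 2.50 CPM, and PDGFRA had no count. Summed over the 6 counted fibroblast genes, levels ran from 49.3 to 54.5 CPM in controls and from 46.1 to 93.2 CPM in knockouts. What part these markers have in the junction gene differences was not tested.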

How the data were processed

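Poly-A selected, strand-specific mRNA libraries were made from 3 passages each of the 2 genotypes, per the labels' protocols. The submitters' processing notes name FastQC, the aligner STAR 2 and the GRCh38 build. The sources used here do not give the counting tool, its annotation or its strand setting. The authors deposited raw read counts per gene symbol, used here for all main values, and a table of log2 CPM for 15066 genes, used for an alternative only.

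Genes were kept with filterByExpr, scaled by TMM and tested with edgeR 4.0.16 (quasi-likelihood F test, R 4.3.3) over all 14199 genes, two-sided, with Benjamini-Hochberg adjustment and no covariate. A standard error is the log2 fold change divided by the square root of F. Positions, exon unions and neighbours come from GENCODE 29, and promoters from RefSeq. A level of 3 counts, taken as an approximate upper limit for a count of 0, was 0.0934 to 0.119 CPM, which covers counting error only. Alternatives were DESeq2 1.42.0, limma 3.58.1 (voom, and on the deposited log2 values), RLE or library size scaling, 2 other filters, a replicate block, glmTreat at 1.5-fold, and leaving out libraries. The edgeR script was tested on simulated data.

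Members and lists were chosen with earlier results of these data known. Named genes are all members, up to 3 called genes with the smallest p per list (or 1 where none was called), the cell type markers and the genes most alike in pattern. MARVELD2, GRHL2, OVOL1, OVOL2, EBI3 and the claudins named without a call were chosen afterwards.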

Additional observations from a re-analysis of the deposited data

How the results depend on the processing

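TJP3 and CLDN4 were called higher in edgeR, DESeq2, limma-voom, limma on the deposited log2 CPM, both other scalings, both other filters, the replicate block and every fit with a library left out, and F11R in all of these but 4 of the fits with a library left out. Against a minimum of 1.5-fold, 1 of the 9 members passed. With libraries left out 2 to 4 members passed. The 11 called genes of the other junction lists numbered 3 to 29 with libraries left out, the largest number without replicate 1 of both groups, which was chosen after seeing the data. The cause of these shifts was not tested. No direction of a called member reversed. Same-numbered libraries of the 2 groups deviated together with a correlation of 0.316, 0.139 and 0.0855 for numbers 1, 2 and 3, and not every library correlated best with its own number, so the numbers were not taken as pairs. With the replicate block 4 members passed, TJP1 being added as lower (-0.22, adjusted p = 0.0456), and 3099 genes in all against 1718. Without control replicates 1, 2 and 3 the count over all genes was 1055, 649 and 550, without knockout replicates 1 and 3 it was 3430 and 524, without replicate 1 of both it was 4312, and against 1.5-fold it was 153. Depth limits CLDN1, CGN and OCLN most, at 46 to 161 counts per library.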
